A study of Mus musculus with 7 samples.

Results

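Nnt, Wdfy1, Entpd4, Entpd4b, Fam177a and Fam177a2 are mouse genes at loci that are known, as background, to differ between C57BL/6 substrains or that have a near-identical copy in the genome. The first 4 were listed for what is known of the substrains and Fam177a as the copy of Fam177a2. Fam177a2 was chosen by its counts in these libraries, which were at 0 in some mice and well above 0 in others. The table was searched for rows that carry one of the 6 symbols. It gave 6 rows of 54347 for 5 of the 6 symbols, because 2 rows were named Nnt and Entpd4b had no row of its own. All 6 rows passed the filter on low counts, as did 15372 rows of the whole table.

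The counts come from LT-HSCs, long-term haematopoietic stem cells, which sustain blood formation for life. They were sorted from the leg and hip bones of 3 female Emcn-/- mice (KO; libraries ko_306, ko_314 and ko_320) and 4 female Emcn+/+ mice (WT; wt_284, wt_290, wt_310 and wt_312), with 1 mouse in each library. Emcn encodes endomucin, a sialomucin of endothelial and stem cell surfaces. All 7 mice carry the strain label C57BL/6N-EMCN em1(IMPC)Wtsi /WtsiH, so knockout and wild-type mice share the C57BL/6N name. The label names 1 mutant allele, a germline one that in KO mice is not limited to blood cells. The labels give neither age nor litter nor the breeding history of single mice.

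C57BL/6 mice have been bred as separate colonies for many generations, and the J and N substrains differ by small variants, deletions and changes in copy number. Nnt encodes nicotinamide nucleotide transhydrogenase, the enzyme of the inner mitochondrial membrane that uses the proton gradient to make NADPH. C57BL/6J mice lack several internal exons of Nnt, whereas C57BL/6N mice keep them. Wdfy1 encodes an endosomal protein that carries the adaptor TRIF to Toll-like receptors TLR3 and TLR4, and Entpd4 encodes a nucleotide-hydrolysing enzyme of Golgi and lysosomal membranes. Mice of mixed J and N descent can carry either allele at such loci. Emcn lies on chromosome 3, and the listed genes lie on chromosomes 1, 12, 13 and 14.

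The library labels were checked with Emcn. Emcn had 1, 0 and 0 counts in the KO libraries, against 130, 327, 223 and 216 in the WT libraries. It averaged 0.0288 ± 0.0499 CPM in KO (SD, n = 3) and 26.98 ± 8.23 CPM in WT (SD, n = 4), and the edgeR quasi-likelihood test gave an adjusted p of 1.04e-04. CPM stands for counts scaled to library size with the TMM factors. Emcn was the 1 gene called among 15372, that is 0.00651% of them. Totals ran from 6444134 to 11101774 counts per library. All 9 LT-HSC markers were detected, and their summed level was 1550 to 1826 CPM in KO libraries and 1098 to 1769 CPM in WT libraries. The lowest sum was that of wt_284, and the remaining WT libraries had 1628 to 1769 CPM.

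Library wt_284 stood apart from the others. The summed level of 11 myeloid markers was 81.2 to 295 CPM in KO libraries, against 6964 CPM in wt_284 and 133 to 713 CPM in the remaining 3 WT libraries. The summed level of 7 erythroid markers was 526 to 673 CPM in KO and 472 to 1796 CPM in WT. That of 7 lymphoid markers was 11.2 to 15.9 CPM in KO and 12.2 to 77.4 CPM in WT. Both sums were highest in wt_284. Of the erythroid sum, Car2 alone held 471 to 575 CPM in KO and 369 to 646 CPM in WT. For 2 of the 7 erythroid markers, Epor and Hbb-bt, the groups did not overlap, against 4.94% of all tested genes. All 11 myeloid markers, all 7 erythroid markers and the 3 lymphoid markers tested had a negative log2 fold change, KO minus WT. Of these, 0 were called, against 0.00651% of all tested genes. In the KO libraries Cd3e was at 0 in all 3, Cd79a in ko_314 and ko_320, Ctsg and Fcgr3 in ko_314, and Ly6c2 and Cd48 in ko_320. In bulk libraries, fewer cells of a type and less RNA per cell cannot be told apart. The part of these cells in the values below was not tested. Without wt_284 the highest WT sum was 880 CPM for the erythroid and 16.1 CPM for the lymphoid markers.

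Nnt was described by 2 rows that lie on the same strand of the same locus in the GRCm38 build. ENSMUSG00000025453 spans chr13:119335448-119408997 on the minus strand and ENSMUSG00000116207 spans chr13:119335528-119408952 inside it. The single transcript of the inner gene, Nnt-206, has 3339 bases and is contained letter for letter in Nnt-202 of the outer gene, which has 3464 bases. Nnt-202 adds 45 bases at the 5′ end and 80 at the 3′ end. Both have 17 exons and the same 2505 coding bases. Of 3309 stretches of 31 bases in the inner gene, 0 were unique to it among all annotated transcripts, against 3663 of 7019 (52.2%) in the outer gene. A read from the shared body therefore carries no letter that assigns it to one of the rows.

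The stretch below shows the junction of exon 7 and exon 8 of the reference transcripts, at chr13:119374745-119381705 on the minus strand in GRCm38, from the GENCODE M21 transcripts. It is shown because the reference genome is that of C57BL/6J, and its transcripts pass here over the exons that the J substrain has lost. Capitals mark 3 bases on each side of the junction, and the pair has 0 mismatches over 60 bases.
Nnt-202: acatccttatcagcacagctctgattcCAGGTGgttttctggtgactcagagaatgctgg
Nnt-206: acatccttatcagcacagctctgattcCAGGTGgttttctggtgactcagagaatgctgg
None of the 5 annotated transcripts of the outer gene or the 1 of the inner gene has an exon between these. In the annotation used here the exons kept by the N substrain have no place in either row, and their presence was not tested.

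The outer Nnt row had 29.2, 21.2 and 55.8 CPM in ko_306, ko_314 and ko_320, against 83.8, 65.8, 20.7 and 49.8 CPM in wt_284, wt_290, wt_310 and wt_312. The groups overlapped, with wt_284 highest and wt_310 lowest. The inner row had 46.9, 59.1 and 10.8 CPM in the KO libraries, against 0, 9.51, 56.5 and 0 CPM in the WT libraries in the same order. It was at 0 in wt_284 and wt_312 and above 40 CPM in ko_306, ko_314 and wt_310, so the high libraries came from both genotypes. Libraries that were high in the inner row were the low ones in the outer row.

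The share of Nnt counts that fell in the inner row differed widely between libraries, and what sets it was not tested. In KO libraries it was 61.6% of 880 counts in ko_306 (95% Wilson interval 58.3 to 64.7%), 73.6% of 537 in ko_314 (69.7 to 77.1%) and 16.3% of 523 in ko_320 (13.3 to 19.7%). In WT libraries it was 12.6% of 800 counts in wt_290 (10.5 to 15.1%) and 73.2% of 504 in wt_310 (69.2 to 76.9%). It was 0 of 712 counts in wt_284, which allows up to 0.421%, and 0 of 389 in wt_312, which allows up to 0.771%. These intervals cover counting error only, and the counts are estimates that the quantifier divided among transcripts.

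Summed over both rows, Nnt had 76.1, 80.3 and 66.6 CPM in ko_306, ko_314 and ko_320, against 83.8, 75.3, 77.2 and 49.8 CPM in wt_284, wt_290, wt_310 and wt_312. No library was near 0 and the groups overlapped. The mean was 74.3 ± 7.03 CPM in KO (SD, n = 3) and 71.5 ± 15.0 CPM in WT (SD, n = 4). The log2 fold change, KO minus WT, was 0.06 ± 0.20 (SE; 95% interval -0.37 to 0.48), and the edgeR quasi-likelihood adjusted p was 0.989. The coefficient of variation over the 7 libraries was 51.5% for the outer row and 103% for the inner row, and 15.7% for their sum. Taken alone, the outer row gave a log2 fold change of -0.64 ± 0.51 and the inner row 1.25 ± 1.89, both with an edgeR adjusted p of 0.988. The outer row moved to -0.37 without wt_284, -0.38 without ko_314, -1.12 without ko_320 and 0.01 with the mice numbered above 300 alone. The inner row moved to 0.84 without wt_284, 0.82 without ko_314, 3.55 without wt_310 and 0.47 with the mice numbered above 300 alone.

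**Figure D1:**
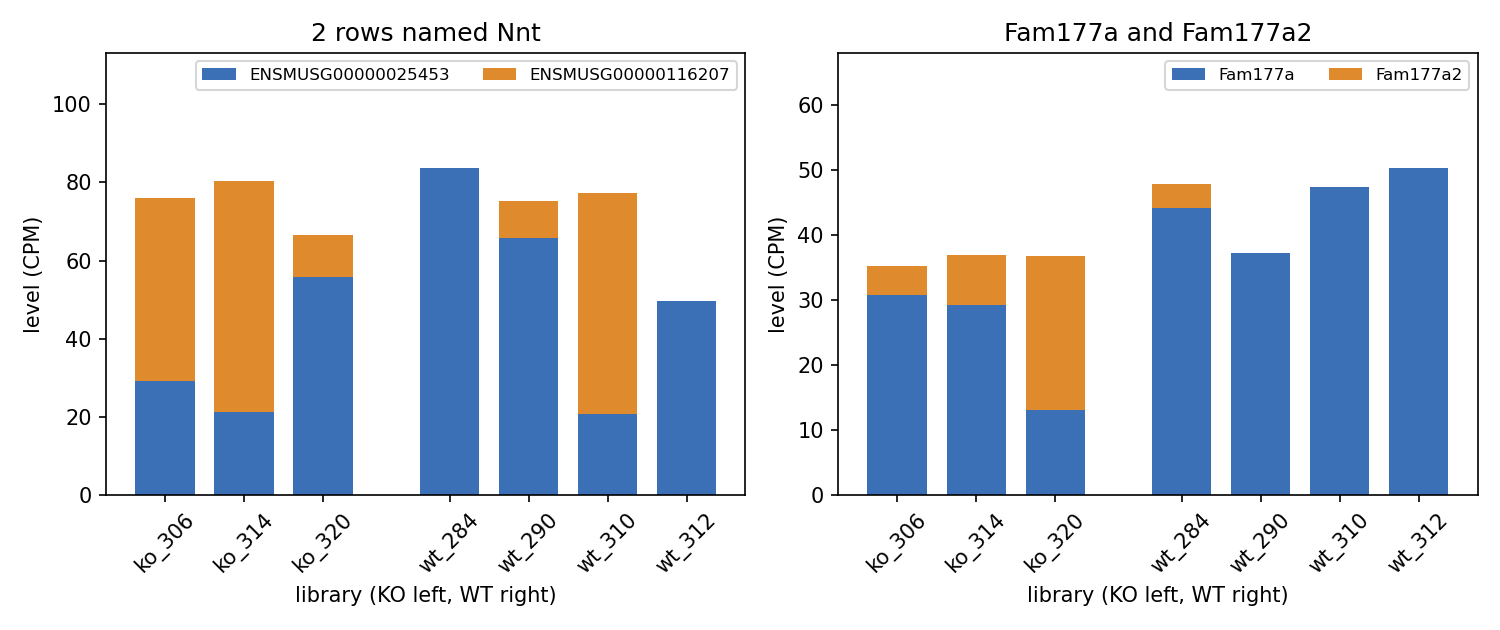
Level in CPM (vertical axis) of the 2 rows named Nnt (left panel) and of Fam177a and Fam177a2 (right panel) in each library, stacked, with KO libraries on the left and WT libraries on the right. The orange share changes between libraries, from 0 to 59.1 CPM for the inner Nnt row, while the summed height of the Nnt bars stays between 49.8 and 83.8 CPM.

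Fam177a and Fam177a2 are a pair of gene copies on chromosome 12, and the human counterpart of Fam177a encodes a small protein of the Golgi. Fam177a (ENSMUSG00000095595) lies at chr12:55124469-55142104 on the plus strand, and Fam177a2 (ENSMUSG00000094103), named 1700047I17Rik2 in GENCODE M21, lies at chr12:55199592-55217168 on the same strand. Each has 1 annotated transcript of 5 exons. The 3863 bases of the Fam177a2 transcript are contained in the 3922 bases of the Fam177a transcript, which adds 59 bases at its 5′ end, and the 621 coding bases are identical. Of the 31-base stretches, 59 of 3892 (1.52%) were unique to Fam177a and 0 of 3833 to Fam177a2. The first 60 coding bases of both, from the GENCODE M21 transcripts, are shown because they leave no letter by which a read could be placed. They lie on the plus strand of GRCm38 at chr12:55124642-55124701 for Fam177a and chr12:55199706-55199765 for Fam177a2, capitals mark the start codon, and the pair has 0 mismatches.
Fam177a: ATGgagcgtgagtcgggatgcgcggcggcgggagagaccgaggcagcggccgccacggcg
Fam177a2: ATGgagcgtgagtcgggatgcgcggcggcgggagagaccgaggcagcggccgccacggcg

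Fam177a2 was listed for its own counts in these libraries, so its values and those of its copy are given as a description with no test. Fam177a2 had 51, 51 and 186 counts in ko_306, ko_314 and ko_320 (4.41, 7.63 and 23.7 CPM), against 31 counts in wt_284 (3.65 CPM) and 0 counts in wt_290, wt_310 and wt_312. With 3 counts as the limit, the zeros leave room for at most 0.283 CPM in wt_290, 0.460 CPM in wt_310 and 0.384 CPM in wt_312. All 3 KO libraries were above all 4 WT libraries, and ko_320 was highest by a wide margin. Non-overlapping groups of this kind were found for 759 of 15372 tested genes (4.94%). The fitted log2 fold change was 3.67 ± 1.66 (SE). Without wt_284 every remaining WT library was at 0, the fitted value was 9.66 and depended on the prior count, and edgeR then called the row across all genes (adjusted p = 0.0326, against 0.988 with all 7 libraries). It also called it with the mice numbered above 300 alone, where the fitted value was 9.59 (adjusted p = 0.0322). These calls are not read as a test, since the counts chose the row.

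Fam177a ran the other way. It had 30.8, 29.3 and 13.1 CPM in ko_306, ko_314 and ko_320, against 44.3, 37.3, 47.4 and 50.4 CPM in wt_284, wt_290, wt_310 and wt_312. Every KO library was below every WT library, and ko_320, the highest library for Fam177a2, was the lowest for Fam177a. The log2 fold change was -0.87 ± 0.29 (SE), and it was -0.57 without ko_320.

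The share of the pair's counts that fell in Fam177a2 was 12.5% of 407 in ko_306 (95% Wilson interval 9.66 to 16.1%), 20.6% of 247 in ko_314 (16.1 to 26.1%) and 64.4% of 289 in ko_320 (58.7 to 69.7%). In the WT libraries it was 7.62% of 407 in wt_284 (5.42 to 10.6%) and 0 of 396, 309 and 394 in wt_290, wt_310 and wt_312. The zeros allow up to 0.758%, 0.971% and 0.761% in those 3 libraries. The 3 KO libraries had the highest shares, and the intervals of ko_306 and wt_284 overlapped. What sets these shares was not tested.

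Summed over both copies, the level was 35.2, 36.9 and 36.8 CPM in ko_306, ko_314 and ko_320, against 47.9, 37.3, 47.4 and 50.4 CPM in wt_284, wt_290, wt_310 and wt_312. The KO libraries lay within 2 CPM of each other, and the lowest WT library, wt_290, was just above the highest KO library. The mean was 36.3 ± 0.962 CPM in KO (SD, n = 3) and 45.7 ± 5.78 CPM in WT (SD, n = 4). The log2 fold change was -0.33 ± 0.19 (SE; 95% interval -0.75 to 0.09). The coefficient of variation was 35.8% for Fam177a, 151% for Fam177a2 and 15.6% for the sum. Fam177a2 was at 0 in 3 libraries, whereas the sum was at least 35.2 CPM in all 7.

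Entpd4 (ENSMUSG00000095463, chr14:69337174-69367270, plus strand) and Entpd4b (ENSMUSG00000022066, chr14:69555424-69585520, plus strand) are a tandem pair. All 5 annotated transcripts of Entpd4b equal a transcript of Entpd4, which has 6, letter for letter. Of 8149 stretches of 31 bases in either gene, 0 were unique. The first 60 coding bases, of 1839 that are identical, are shown for the same reason as above, from the GENCODE M21 transcripts on the plus strand of GRCm38. They are spliced from chr14:69347587-69349124 for Entpd4 and chr14:69565837-69567374 for Entpd4b, with the start codon in capitals and 0 mismatches.
Entpd4: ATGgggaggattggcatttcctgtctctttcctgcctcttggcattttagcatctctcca
Entpd4b: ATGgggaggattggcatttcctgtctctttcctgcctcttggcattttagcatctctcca
Reads of both copies fall on the same letters, and Entpd4b by itself was not analysed here. The same held for other identical copies: of 1573 annotated genes whose transcripts all equal those of another gene, 1055 (67.1%) had no row, against 301 of the other 53877 (0.559%).

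Entpd4 had 38.8, 41.9 and 25.1 CPM in ko_306, ko_314 and ko_320, against 27.2, 40.6, 40.0 and 34.7 CPM in wt_284, wt_290, wt_310 and wt_312. The highest and the lowest library were both KO, and the groups overlapped throughout. The mean was 35.3 ± 8.95 CPM in KO (SD, n = 3) and 35.6 ± 6.22 CPM in WT (SD, n = 4). The log2 fold change was -0.01 ± 0.24 (SE; 95% interval -0.54 to 0.51), with an edgeR adjusted p of 0.996. It was -0.13 without wt_284. The interval still allows a change of up to about 0.5 on the log2 scale in either direction.

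Wdfy1 (ENSMUSG00000073643, chr1:79702262-79776143, minus strand) has no such copy, and 98.6% of its 31-base stretches were unique. It had 73.0, 67.1 and 67.5 CPM in ko_306, ko_314 and ko_320, against 59.5, 73.5, 48.0 and 55.4 CPM in wt_284, wt_290, wt_310 and wt_312. The KO libraries were close together, and wt_290 was above all of them. The mean was 69.2 ± 3.29 CPM in KO (SD, n = 3) and 59.1 ± 10.7 CPM in WT (SD, n = 4). The log2 fold change was 0.23 ± 0.18 (SE; 95% interval -0.17 to 0.62), with an edgeR adjusted p of 0.988. The coefficient of variation over all 7 libraries was 15.0%, with no library near 0.

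**Figure D2:**
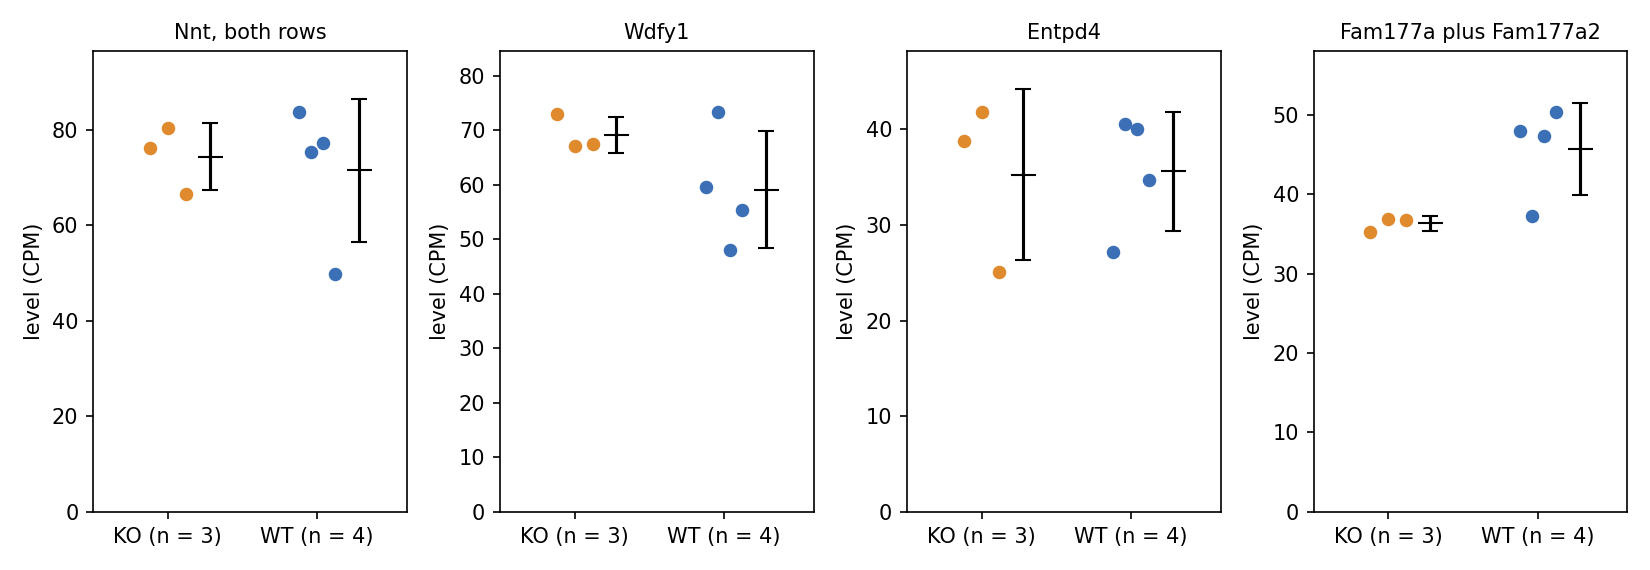
Level in CPM (vertical axes, from 0) of Nnt summed over both rows, Wdfy1, Entpd4 and Fam177a plus Fam177a2 in each KO library (orange, n = 3) and WT library (blue, n = 4), with mean and SD as bars. KO and WT points overlap for the first 3, and the KO points of the fourth, 35.2 to 36.9 CPM, sit below the WT points, 37.3 to 50.4 CPM.

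The edgeR test called 0 of the 4 rows of Nnt, Wdfy1 and Entpd4, against 0.00651% of all tested genes. With the paired rows summed, the libraries did not order the 4 loci alike. The highest library was wt_284 for Nnt, wt_290 for Wdfy1, ko_314 for Entpd4 and wt_312 for the Fam177a pair, and the lowest was wt_312, wt_310, ko_320 and ko_306 in the same order of loci. No library was at the top or the bottom of more than 1 of these loci, apart from wt_312, which was lowest for Nnt and highest for the Fam177a pair.

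**Figure D3:**
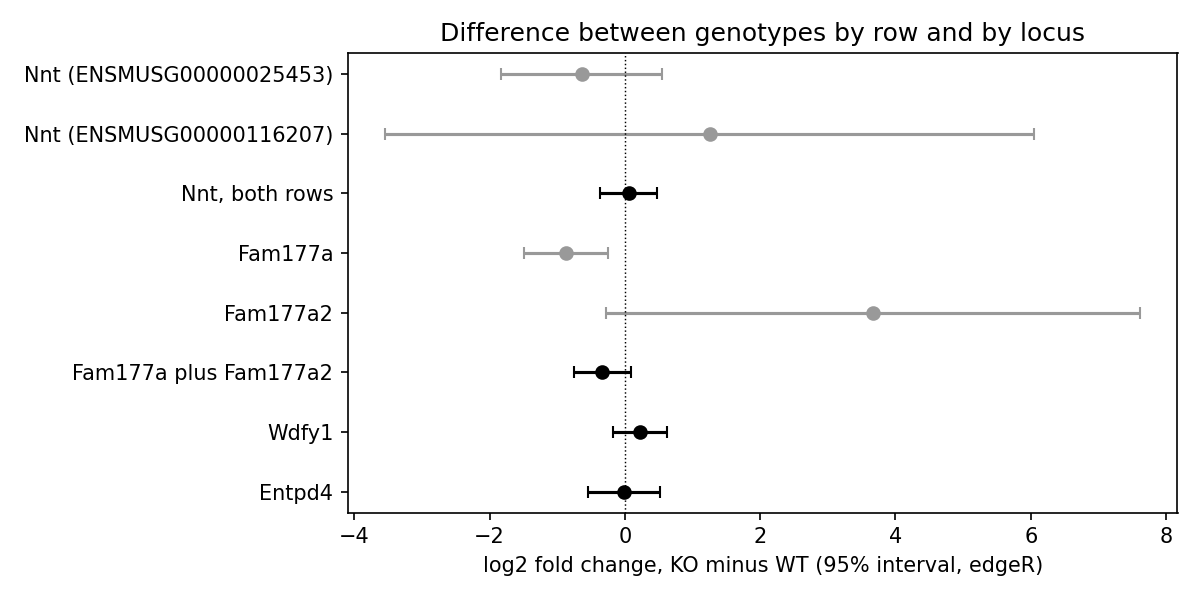
Log2 fold change, KO minus WT (horizontal axis), with the 95% interval from edgeR. Grey points are single rows of the Nnt and Fam177a pairs. Black points are those pairs summed, Wdfy1 and Entpd4. The Fam177a2 row lies at 3.67 and the inner Nnt row at 1.25 with wide intervals, and the 4 black points lie between -0.33 and 0.23.

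The spread between libraries was set beside that of all tested genes with a mean of at least 10 CPM. Over these 9883 genes the coefficient of variation had a median of 21.1% and quartiles of 15.0 and 30.0%. Wdfy1, summed Nnt, the summed Fam177a pair and Entpd4 lay at percentiles 25.02, 28.2, 27.8 and 42.2 of that distribution. The outer Nnt row lay at percentile 94.1, the inner Nnt row at 98.2 and Fam177a at 84.3. Fam177a2, whose mean was below that floor, lay at 95.8 by quasi-dispersion among the 500 tested genes of most similar mean. By that measure, Wdfy1, summed Nnt, the summed Fam177a pair and Entpd4 lay at percentiles 31.2, 58.8, 6.6 and 48.8. The outer Nnt row, the inner Nnt row and Fam177a lay at 97.6, 99.8 and 77.2 by it. These are descriptions, since the counts of Fam177a2 chose it.

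**Figure D4:**
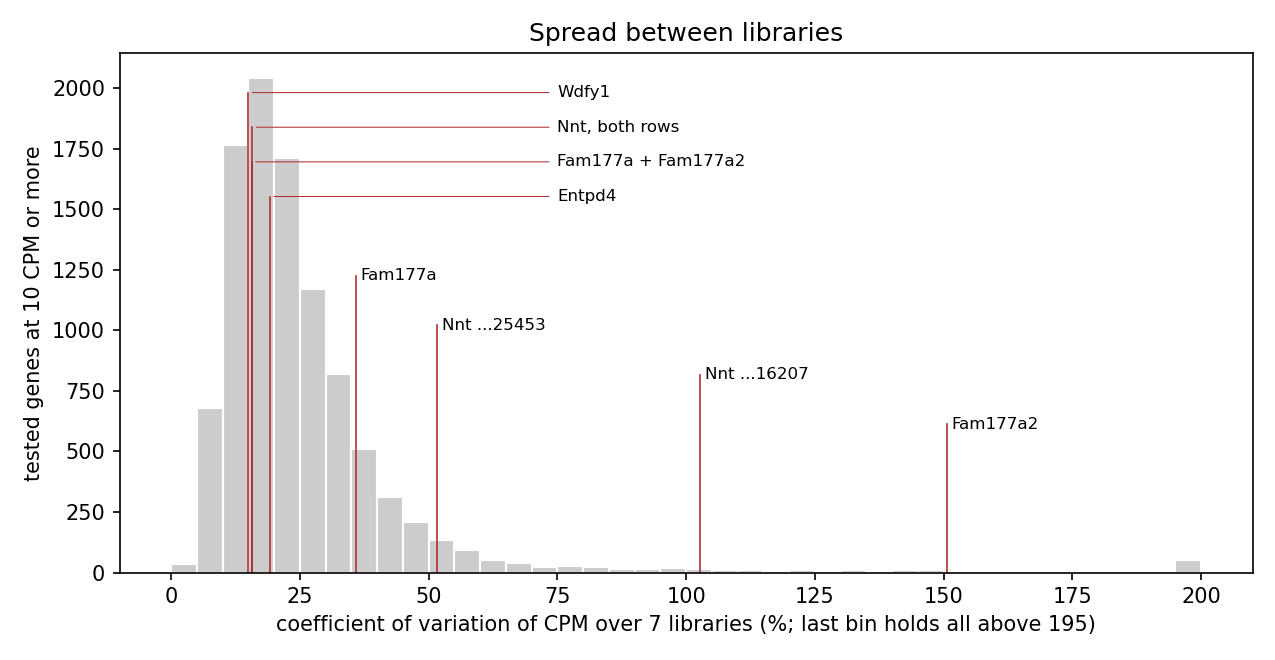
Number of tested genes with a mean of at least 10 CPM (vertical axis) by coefficient of variation of CPM over the 7 libraries (horizontal axis, percent; the last bin holds all higher values), with red lines at the rows and summed loci; line heights carry no value. Wdfy1, the 2 sums and Entpd4 lie at 15.0 to 19.1%, in the main body, and Fam177a2 lies at 151%.

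On-off counts were not rare in the table. Among 11669 rows that reached 10 CPM in any library, 360 (3.09%) had 0 counts in at least 1 other library, and the inner Nnt row and Fam177a2 were both among them. Rows with no unique 31-base stretch were on-off in 42 of 149 cases (28.2%), against 317 of 11511 (2.75%) of rows with one. The highest library was wt_284 for 248 of the 360, and without that library 155 of 11264 rows (1.38%) were on-off. The zeros fell in exactly the libraries of 1 genotype for 2 rows, Igkc and Ear1, which were named after their values were seen, and not for any of the listed genes.

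The on-off rows with the highest levels included several granulocyte and phagocyte genes. Lcn2, the iron-binding neutrophil protein lipocalin-2, was at 0 in ko_314 and ko_320 and reached 829 CPM in wt_284, and Mmp9, Mmp8, Cybb, Retnlg and Prg2 also peaked in wt_284, at 309 to 558 CPM. For these 6 genes, 94.5 to 100% of 31-base stretches were unique. The other 4 had few or no unique stretches. COX3, a subunit of cytochrome oxidase encoded in mitochondrial DNA, ranged from 0 CPM in ko_320 to 834 CPM in wt_310 with 0.133% unique stretches, Gm10925 and Rnu1a1, a U1 small nuclear RNA, had 0%, and n-R5s193, a 5S ribosomal RNA, had 21.5%.

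Other loci at which C57BL/6 colonies are known to differ were looked at beside the listed genes. Of 9 such loci, 6 were tested, and 3 had a positive and 3 a negative log2 fold change. Of the 6, 0 were called, against 0.00651% of all tested genes. None of the 6 had an unadjusted p under 0.05, which 3.32% of all tested genes had. Their median was -0.09, against -0.0038 over all tested genes. Dock2, a guanine nucleotide exchange factor of blood cells that is duplicated in part in some N colonies, had 670 to 679 CPM in KO libraries and 624 to 717 CPM in WT libraries. Cyfip2, a regulator of actin branching, had 250 to 329 CPM in KO and 218 to 440 CPM in WT. Mmrn1, which encodes multimerin and is deleted in one C57BL/6J-derived colony, had 299 to 388 CPM in KO and 218 to 386 CPM in WT, so no library lacked it. Ide, the insulin-degrading enzyme, had 94.2 to 98.6 CPM in KO and 68.7 to 118 CPM in WT.

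The genes around each locus were read as a further description, since neighbours can share a linked stretch of background. Shared sequence need not change RNA levels, and a contrast of genotypes cannot see background that differs between mice of 1 genotype. Within 500 kb of a listed gene, the edgeR test called 0 of 7 neighbours at Nnt, 0 of 8 at Wdfy1, 0 of 8 at Entpd4 and 0 of 17 at the Fam177a pair. Of all tested genes, 0.00651% were called. An unadjusted edgeR p under 0.05 was reached by 1 neighbour at Nnt, 1 at Wdfy1, 0 at Entpd4 and 1 at the Fam177a pair. Of all tested genes, 3.32% reached it. The median log2 fold changes of the neighbours were 0.11 at Nnt, 0.03 at Wdfy1, -0.29 at Entpd4 and -0.03 at the Fam177a pair. Some neighbours had few unique stretches, among them Srp54b (10.1%) and Srp54c (4.00%) at the Fam177a pair, so the values of such rows are uncertain for the single gene.

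Beside Nnt, the kinase gene Nim1k had 8.30, 16.4 and 16.0 CPM in ko_306, ko_314 and ko_320, against 6.47, 8.01, 7.97 and 8.31 CPM in wt_284, wt_290, wt_310 and wt_312. Its log2 fold change was 0.82 ± 0.37, with an edgeR adjusted p of 0.988, and ko_306 fell within the WT range. Beside Wdfy1, the unnamed locus Gm37886 averaged 6.78 CPM in KO and 1.63 CPM in WT, with a log2 fold change of 2.04 ± 0.76 (edgeR adjusted p = 0.988). Gm37886 had 2.25 CPM in ko_306, within the WT range of 0.588 to 2.76 CPM, and 8.67 and 9.42 CPM in ko_314 and ko_320. Beside the Fam177a pair, Psma6, which encodes a proteasome subunit, had 61.2, 77.9 and 74.7 CPM in the KO libraries, against 55.7, 60.9, 50.7 and 48.5 CPM in the WT libraries. All its KO values were above all its WT values, by 0.40 ± 0.17 on the log2 scale (edgeR adjusted p = 0.988). Prorp, the catalytic subunit of mitochondrial RNase P, had 20.8 to 26.0 CPM in KO and 15.8 to 18.8 CPM in WT, again without overlap (log2 fold change 0.45 ± 0.25, edgeR adjusted p = 0.988). Slc25a37, the mitochondrial iron importer of erythroid cells next to Entpd4, averaged 50.7 CPM in KO and 115 CPM in WT, with 245 CPM in wt_284, the library highest in erythroid markers.

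The pathways of the listed genes were then counted. Of all tested genes, 0.00651% were called and 3.32% had an unadjusted edgeR p under 0.05. Of 17 tested genes for NADPH supply other than Nnt, 5 had a positive and 12 a negative log2 fold change, 0 were called, and the median was -0.20. Idh1, the cytosolic isocitrate dehydrogenase, had 14.5 to 22.4 CPM in KO and 25.3 to 66.5 CPM in WT (log2 fold change -0.98 ± 0.34, edgeR adjusted p = 0.988), with wt_284 highest. Idh2, its mitochondrial counterpart and another matrix source of NADPH beside Nnt, averaged 126.7 ± 14.2 CPM in KO and 126.6 ± 14.1 CPM in WT (SD, n = 3 and 4). All 10 genes listed for mitochondrial antioxidant defence, among them Sod2 and Glrx5, had a negative log2 fold change, with a median of -0.21 and 0 called. Glrx5, which serves iron-sulphur cluster assembly, was the 1 gene with an unadjusted p under 0.05, at 10.5 to 13.1 CPM in KO and 9.34 to 33.9 CPM in WT. Gsr, glutathione reductase, had 30.5 to 47.7 CPM in KO, against 274 CPM in wt_284 and 40.4 to 57.4 CPM in the remaining WT libraries. Myeloid markers were high in the same library, and their part in these counts was not tested.

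Of 21 tested genes listed beside Wdfy1 for endosomes or TLR3 and TLR4 signalling, 10 had a positive and 11 a negative log2 fold change. The median was -0.05 and 0 were called, against 0.00651% of all tested genes. Wdfy4, a relative of Wdfy1 that serves cross-presentation in dendritic cells, had 269 to 305.9 CPM in KO and 261 to 337 CPM in WT. Tlr4, the receptor for lipopolysaccharide, had 17.4 to 19.9 CPM in KO and 8.70 to 22.4 CPM in WT, and Tlr3, a receptor for double-stranded RNA, stayed at or below 2.94 CPM in KO and 3.11 CPM in WT and was not tested. Of 16 tested ectonucleotidases and Golgi nucleotide-sugar genes other than Entpd4, 6 had a positive and 10 a negative log2 fold change, 0 were called, and the median was -0.03. Slc35a2, the Golgi UDP-galactose transporter, had 4.93 to 8.30 CPM in KO and 7.82 to 13.7 CPM in WT (log2 fold change -0.92 ± 0.40, edgeR adjusted p = 0.988). Of 7 tested genes listed with the Fam177a pair, 5 had a positive and 2 a negative log2 fold change. Of the 7, 0 were called, and their median was 0.24. Ppp2r3d, 1 of the 5 positive at 0.17, was not among the tested neighbours within 500 kb of the pair. Among the 7, Srp54a, Srp54b and Srp54c had 27.5%, 10.1% and 4.00% unique stretches. Most of their sequence cannot place a read, so these signs and the median describe rows rather than genes. In ko_320, Srp54a and Srp54b were at their highest (146 and 28.3 CPM) and Srp54c at its lowest (35.4 CPM). Whether counts were divided between these rows was not tested. The groups did not overlap for 2 of these 7, Psma6 and Prorp, against 4.94% of all tested genes.

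The 5 genes whose log2 CPM followed Fam177a2 most closely over the 7 libraries were Vps50, Tcta, Taf1a, Atg16l1 and Rnase6, with Pearson correlations between 0.946 and 0.978. The 5 closest to Wdfy1 were Ipo7, Cep83os, Wee1, Tmed8 and Tmem94, between 0.9496 and 0.966. They are the highest of 11732 candidates over 7 points that share libraries and depth, and they are given as a description.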

How the data were processed

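LT-HSC RNA from 7 mice was sequenced in pairs after library construction with a SMARTer total RNA kit for small inputs, per the labels' protocols. Cutadapt and Salmon were used, per the submitters' processing notes. For their versions, the annotation and the summing of transcripts into genes, the sources used here give nothing. The authors deposited 1 table of estimated counts per gene, held as whole numbers and not scaled between libraries. All value columns matched a library by name and 0 were unused. No 2 of the libraries agreed within sampling noise (lowest chi-square per degree of freedom 7.61 over 21 pairs).

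Of 54347 gene identifiers, 99.5% were found in GENCODE M21 (GRCm38), which gave positions, transcripts and sequences and served to count unique 31-base stretches. The test was edgeR's robust quasi-likelihood test (edgeR 4.0.16, R 4.3.3) after filterByExpr and TMM scaling. It contrasted KO with WT over 15372 genes, with Benjamini-Hochberg adjustment and a threshold of 0.05. Standard errors are the log2 fold change over the square root of F. For Nnt, and for Fam177a with Fam177a2, the counts of both rows were summed before the same fit. CPM are counts over the TMM-scaled library total. A zero was given a limit of 3 counts. DESeq2 1.42.0 served as an alternative. Fits were tested on simulated data.

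The listed genes, gene lists and tests were chosen with earlier results of these data known. Named genes were the listed ones, members of each gene list with an unadjusted p under 0.05 and up to 4 others by mean CPM, tested neighbours within 500 kb, the 5 most similar genes for Fam177a2 and Wdfy1, and up to 10 on-off rows by level. Tlr3 and Tlr4 were added after their values were seen. On-off means 0 counts in a library and at least 10 CPM in another. Summing the 2 Nnt rows was chosen after seeing the data, as the table was found to hold both.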

Additional observations from a re-analysis of the deposited data

Results flagged for a closer look

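Among the 4 WT libraries, 3 values lay far from the others, by a gap over range above the 95% critical value of Dixon's test for 4 samples. The rule was run on each listed row, the summed loci, Emcn and the other expressed substrain loci. The sums contain their rows, so these groups are not independent. Chance alone puts about 5% of groups above that value, where a group was not chosen by its counts. The inner Nnt row, ENSMUSG00000116207, had 56.5 CPM in wt_310, with a gap over range of 0.832. Fam177a2 had 3.65 CPM in wt_284 and 0 in the other WT libraries, which is a description only, since that row was chosen by its on-off counts. Nlrp12, an inflammasome-family gene with a known variant between substrains, had 0 to 0.692 CPM in KO libraries, against 21.3 CPM in wt_284 and 0 to 2.15 CPM in the other WT libraries. Myeloid markers were also highest in wt_284, and their part in the Nlrp12 and Fam177a2 values was not tested. Summed over both rows, Nnt in wt_310 was 77.2 CPM, within the range of the other WT libraries.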

How the results depend on the processing

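The log2 fold changes of the listed genes and the counts of called genes were recomputed under 14 alternatives and the on-off count under 2. Levels, shares, spreads and list or neighbour counts were not. Summed Nnt, Wdfy1 and Entpd4 passed the threshold in 0 of the 14 (lowest edgeR or DESeq2 adjusted p 0.725). Wdfy1 stayed positive in all, at 0.12 to 0.42, and the Fam177a pair summed stayed negative in all, at -0.43 to -0.28. Near 0, the sign of Entpd4 turned when single libraries were left out, over a range of -0.15 to 0.18, and that of summed Nnt likewise, over -0.085 to 0.14; the cause was not tested. Genes called higher in KO were 0, but 5 with no filter on low counts, 4 with the mice numbered above 300 alone and 0 to 1 with single libraries left out. At an unadjusted p under 0.05, edgeR passed 511 genes in both directions. Genes called lower were 1, but 10 with DESeq2, 76 with no filter, 3 with the mice above 300 alone and 1 to 3 with single libraries left out. On-off rows were 360, 892 at a level of 5 CPM and 155 without wt_284. The single Fam177a2 row was called without wt_284 and with the mice above 300 alone. The planned sum of Entpd4 and Entpd4b was not run, because the pair shares 1 row. No paired analysis was possible because every mouse number occurs once and none is shared between genotypes. Depth limits Fam177a2 most, with 319 counts in all.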
